A study of Mus musculus with 25 samples.

Results

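Amtn (amelotin) and Odam (odontogenic ameloblast-associated protein) are described here across mouse mammary tumors and glands. They are 2 of the 19937 genes of a series of 25 Affymetrix arrays, each of which reads whole transcripts in 1 colour. Both were chosen by name with their values on these arrays already known, so their own levels and differences are given as a description, with errors and without tests. Each gene has 1 probe set, the interrogating feature for that gene on the array. By label, K8-creERT2/PIK3CA H1047R mice (mixed FVB/CD1) gave 10 tumors and Lgr5-creERT2/PIK3CA H1047R mice (mixed FVB/C57/BL6) another 10. Reference glands came from K8-creERT2 ctrl mice (2 arrays) and Lgr5-creERT2 ctrl mice (3 arrays). The Cre lines induce PIK3CA H1047R, an activated PI3-kinase subunit, upon tamoxifen at an age of 7 to 8 weeks. In the K8 line this happens in cells with keratin 8, found in luminal epithelium, and in the Lgr5 line in cells with Lgr5, a receptor of Wnt-responsive cells. The protocol is worded alike for all samples, so whether the ctrl mice also received tamoxifen is not given; neither is the age at collection. Line and genetic background go together and cannot be told apart. Below, "K8 tumor", "Lgr5 tumor", "K8 gland" and "Lgr5 gland" mean the label of an array. Separate animals are not stated for the arrays of a group, so the p-values rest on the spread among these samples alone, and it may be technical.

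Amelotin and Odam are secreted proteins of the maturing tooth. Ameloblasts, the cells that lay down and then mature enamel, deposit both in a specialised basal lamina rich in laminin-332, and the junctional epithelium that seals the gum to the tooth keeps making them. Both belong to the secretory calcium-binding phosphoprotein family, which includes the milk caseins, salivary proteins and the enamel matrix proteins amelogenin, ameloblastin and enamelin. The genes of caseins, ameloblastin and enamelin lie near Amtn and Odam on the chromosome, and that of amelogenin is not among their neighbours. Odam is also known from salivary and nasal glands and from epithelial tumors, breast cancer among them.

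By RefSeq annotation of GRCm38.p6, Odam (gene ID 69592) lies at chr5:87885010-87894809 and Amtn (gene ID 71421) at chr5:88376108-88385916. Both are on the forward strand, and 481.3 kb with 7 coding genes separates them, of which 6 were measured. The 250 bases before each RefSeq gene start are shown because the levels of both genes went the same way across the tumors while they parted between K8 tumors and K8 glands. Capitals mark TGATTGGTC, the longest run that both sequences share among runs holding ATTGG, the inverted CCAAT box.
Amtn, chr5:88375858-88376107: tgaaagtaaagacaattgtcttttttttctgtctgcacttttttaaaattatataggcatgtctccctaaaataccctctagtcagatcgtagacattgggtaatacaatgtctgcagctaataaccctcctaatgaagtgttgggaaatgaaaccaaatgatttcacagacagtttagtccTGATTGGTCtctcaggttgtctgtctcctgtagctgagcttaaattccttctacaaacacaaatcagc
Odam, chr5:87884760-87885009: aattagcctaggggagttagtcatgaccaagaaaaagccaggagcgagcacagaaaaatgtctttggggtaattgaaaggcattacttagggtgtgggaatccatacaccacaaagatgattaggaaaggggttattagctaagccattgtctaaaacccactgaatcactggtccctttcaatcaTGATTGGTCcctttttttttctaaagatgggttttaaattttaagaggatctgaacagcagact
The run begins 68 bases before the start of Amtn and 64 bases before that of Odam. It was found by comparing these sequences for shared runs that hold ATTGG. Of 32851 RefSeq promoters of the same length, 218 (0.664%) hold the run on either strand. That the run covers an inverted CCAAT box, a motif of many promoters, was thus set by the search. CCAAT was searched on both strands and occurs in 33.8% of promoters, with 2 inverted matches before Amtn and 1 before Odam. TGTGGT, the core bound by runt-domain factors, has 1 inverted match before Odam and 0 before Amtn, against 14.0% of promoters with a match. TATAAA and the forkhead core GTAAACA have 0 matches in both windows and occur in 12.4% and 3.17% of promoters. A match describes letters and not a bound site.

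Tissue markers went against the labels of 7 arrays labelled tumor and were unusual for a gland in the 5 arrays labelled gland, which bears on every group comparison. A mammary gland holds much fat, yet the mean log2 value of 9 measured adipocyte genes (of 10 listed) was 12.56 to 12.77 in Lgr5 tumors 2, 6, 7, 8 and 9, and 7.24 to 9.55 in the 5 arrays labelled gland. The highest value in the other 15 tumors was 11.27. The mean of 12 squamous epithelium genes, which mark cornified skin-like cells, was 8.26 to 10.18 in the 5 glands, 9.35 in K8 tumor 9 and 9.60 in Lgr5 tumor 10, and at most 7.56 in the other 18 tumors. Whether these labels belong to these values cannot be settled here. The 5 glands also had higher means than the 20 tumors for neutrophil genes (8.04 against 6.16) and cell cycle genes (9.78 against 8.81). No array was moved to another group. The main differences are also given without these 7 tumors, but every difference against glands rests on the 5 glands as labelled. Array medians lay between 6.34 and 6.43, no arrays held identical values, and their number limits the precision.

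**Figure D1:**
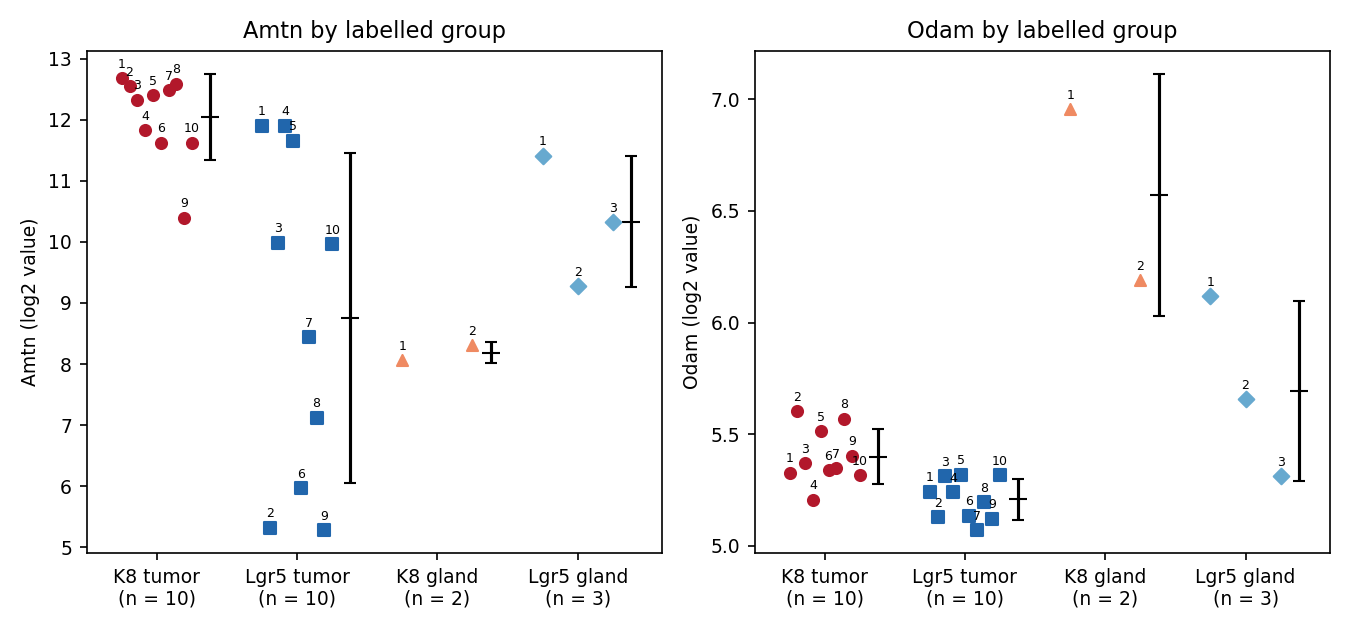
Log2 values of Amtn (left) and Odam (right) on each of the 25 arrays by labelled group, with the replicate number above each point and the mean and SD of the group beside it. The y axes differ: Amtn spans 7.40 log2 units over all arrays and Odam 1.89.

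Amtn was among the most variable genes of the data set. Its SD over the 25 arrays was 2.38 on the log2 scale, rank 16 of 19937 genes, so that 0.08% of genes varied as much or more. In the 10 K8 tumors the log2 value ran from 10.40 through a median of 12.37 to 12.67 (mean 12.05 ± 0.70 SD, n = 10). The 9 K8 tumors other than tumor 9 lay within 11.62 to 12.67, a narrow band near the top of the array's range. The 2 K8 glands read 8.06 and 8.31 (mean 8.19 ± 0.18 SD, n = 2). All K8 tumors therefore lay above both K8 glands. Lgr5 glands 1, 2 and 3 read 11.41, 9.27 and 10.32 (mean 10.33 ± 1.07 SD, n = 3), each above both K8 glands. Of the K8 tumors, 9 of 10 lay above all Lgr5 glands.

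The Lgr5 tumors spread over nearly the whole range of the gene. Their log2 values ran from 5.28 through a median of 9.20 to 11.90 (mean 8.75 ± 2.70 SD, n = 10). Lgr5 tumors 1, 4 and 5 read 11.90, 11.90 and 11.65, within the band of the K8 tumors, and Lgr5 tumors 3 and 10 read 9.99 and 9.96. Lgr5 tumors 2, 6, 7, 8 and 9 read 5.32, 5.97, 8.44, 7.12 and 5.28. These 5 are the arrays with the high adipocyte genes, and 4 of them gave the lowest Amtn values of all 25 arrays. By group mean the order was K8 tumor, Lgr5 gland, Lgr5 tumor, K8 gland, and the ranges of Lgr5 gland and K8 gland both lay within that of the Lgr5 tumors.

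Amtn was 3.86 ± 1.39 log2 units higher in K8 tumors than in K8 glands (SE of the limma fit, 14.6-fold). It was 3.30 ± 0.80 higher in K8 than in Lgr5 tumors (9.82-fold), with 6 of 10 K8 tumors above every Lgr5 tumor. These SEs pool the spread over the 4 groups, whose SDs ran from 0.18 in K8 glands to 2.70 in Lgr5 tumors. In the Lgr5 line the tumor mean lay 2.99-fold below the gland mean, a log2 difference of -1.58 ± 1.18 that is close to its SE. It was -1.04 ± 1.41 without Lgr5 gland 1 and -2.55 ± 0.92 with array weights, which count less reliable arrays for less. Without Lgr5 tumors 2, 6, 7, 8 and 9 that sign turned, to 0.75 ± 0.58, and without all 7 arrays it was 1.03 ± 0.49. The difference between tumors shrank to 0.97 ± 0.43 without the 5 and to 0.87 ± 0.38 without all 7. The difference between K8 tumors and K8 glands ranged from 3.74 to 4.14 over all settings tried. Cell type lists also differed between these groups: the mean of 4 hormone-sensing luminal genes was 10.09 in K8 tumors and 7.27 in K8 glands, that of 8 basal genes 11.04 and 8.99, and that of the squamous genes 6.37 and 9.84. K8 tumor 9, the lowest K8 tumor for Amtn, was also the lowest for the hormone-sensing mean (6.97) and the basal mean (8.87). The part of these cell types in the Amtn difference was not tested. For scale, limma with a Benjamini-Hochberg adjusted p below 0.05 called 3.42% of all genes higher and 5.69% lower in K8 tumors than in K8 glands, and 12.3% higher and 9.0% lower in K8 than in Lgr5 tumors. It called 5.28% higher and 10.6% lower in Lgr5 tumors than in Lgr5 glands. Nothing about Amtn is read from these shares, since it was chosen with these values known.

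Epithelial genes were lower, like Amtn, in the 5 Lgr5 tumors with high adipocyte genes than in the other Lgr5 tumors. The mean of 8 epithelial genes such as Epcam and Krt8 was 9.82 in the 5 arrays with high adipocyte genes and 11.30 in Lgr5 tumors 1, 3, 4, 5 and 10, a log2 difference of -1.48. The mean of the adipocyte genes differed by 2.67 in the other direction, and Amtn by -4.66 (6.43 against 11.08). The Amtn gap was the wider, but it sets 1 gene, chosen with its values known, beside a mean of 8. Within these sets the epithelial mean did not follow Amtn. Lgr5 tumors 3 and 10 had higher epithelial means (11.46 and 11.39) than Lgr5 tumors 1, 4 and 5 (11.17 to 11.28) and lower Amtn. Of the 5 arrays with high adipocyte genes, Lgr5 tumor 9 had the highest epithelial mean (10.19) and the lowest Amtn (5.28). In whole tissue, fewer cells of a type and less RNA per cell cannot be told apart, and the part of either in the Amtn values was not tested. K8 tumor 7, with the highest adipocyte mean of the K8 tumors (11.27), read 12.48 for Amtn, and the K8 glands, with 7.36 and 8.47, read near 8.

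**Figure D2:**
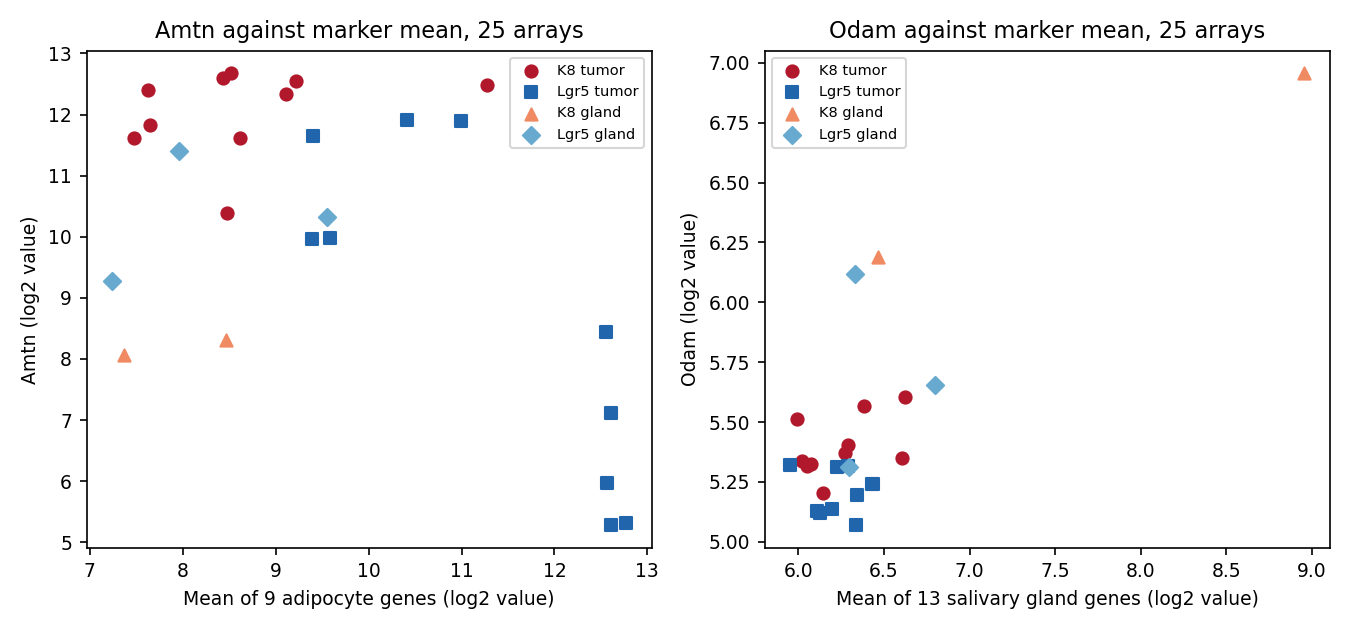
Left: Amtn against the mean of 9 adipocyte genes on 25 arrays. Right: Odam against the mean of 13 salivary gland genes, all axes in log2 values; the 5 Lgr5 tumors with adipocyte means above 12 hold the low Amtn values, and K8 gland 1 stands alone at a salivary mean of 8.95 with the highest Odam value.

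Odam gave a far smaller and partly opposite pattern. Its log2 value was 6.96 in K8 gland 1 and 6.19 in K8 gland 2 (mean 6.57 ± 0.54 SD, n = 2). Both lay above all other 23 arrays. Lgr5 glands 1, 2 and 3 read 6.12, 5.66 and 5.31 (mean 5.69 ± 0.40 SD, n = 3), so that 2 of 3 lay above all tumors and the third fell among them. The K8 tumors ran from 5.21 through 5.36 to 5.60 (mean 5.40 ± 0.12 SD, n = 10). The Lgr5 tumors ran from 5.07 through 5.22 to 5.32 (mean 5.21 ± 0.09 SD, n = 10). The lines' tumors overlapped, yet 8 of 10 K8 tumors lay above every Lgr5 tumor. Its SD over 25 arrays was 0.42, against a median of 0.17 over all genes, and 19.1% of genes varied as much or more. The tumor values sit near the low end of the table, whose lowest value is 4.13, and no call of presence was used here.

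Odam was 1.17 ± 0.15 log2 units lower in K8 tumors than in K8 glands (SE of the fit, 2.26-fold), a value that rests on 2 glands. The fit pools the spread over the 4 groups, and the SD was 0.54 in K8 glands against 0.12 and 0.09 in the tumor groups. The SEs of Odam differences that involve glands therefore understate the spread of the glands. Without K8 gland 1 the difference was -0.79 ± 0.17, and without K8 gland 2 it was -1.56 ± 0.17. With a single gland left, the fit assumes that it varies like the other groups. In the Lgr5 line the tumor mean lay 0.49 ± 0.13 below the gland mean, from -0.28 without Lgr5 gland 1 to -0.68 without Lgr5 gland 3. Between lines Odam was 0.19 ± 0.09 higher in K8 than in Lgr5 tumors. That difference was 0.11 ± 0.12 without Lgr5 tumors 2, 6, 7, 8 and 9 and 0.12 ± 0.13 without all 7 arrays, no larger than its SE. Odam was 0.88 ± 0.18 higher in K8 than in Lgr5 glands. The gland difference was 0.49 ± 0.19 without K8 gland 1 and 1.26 ± 0.19 without K8 gland 2. Amtn went the other way between glands, at -2.15 ± 1.64. The array with the highest Odam carried salivary transcripts: the mean of 13 measured salivary genes (of 14 listed) was 8.95 in K8 gland 1 and 5.95 to 6.80 in the other 24 arrays. Bpifa2, a secreted parotid protein, read 13.20 there and at most 5.87 elsewhere, and Pip, prolactin-induced protein, 11.53 against at most 6.51. Of the 13 genes, 6 were highest in this array: Bpifa2, Pip, Smr3a, Dcpp1, Amy1 and Lpo. The other 7 were not, among them Aqp5 (8.59, against 8.34 to 11.95 elsewhere), Muc19 (5.16), Dcpp2 (4.97) and Smr2 (5.01). Amy1, encoding amylase, read 12.36 there but also 10.53 to 11.06 in the 5 Lgr5 tumors rich in adipocyte genes. K8 gland 2, with a salivary mean of 6.46, still had an Odam value above every tumor. The part of salivary tissue in the value of K8 gland 1 was not tested.

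**Figure D3:**
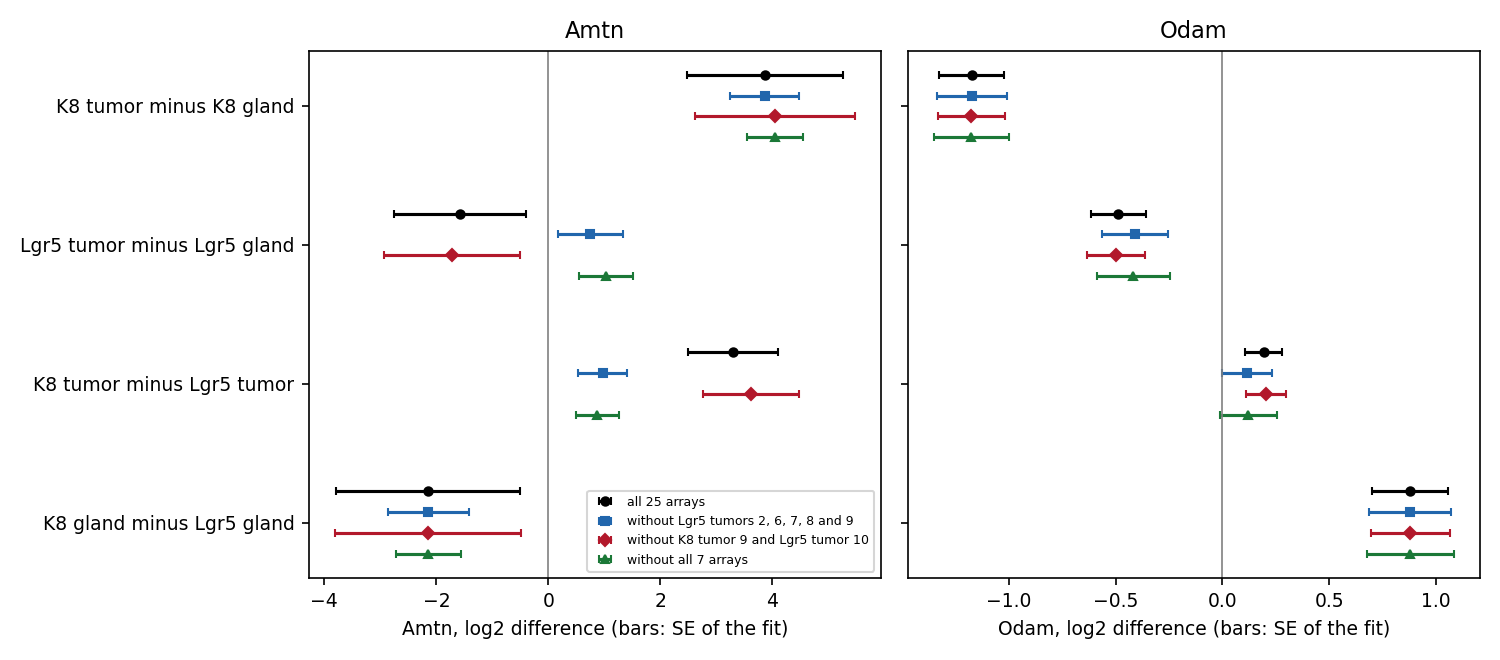
Log2 differences of Amtn (left) and Odam (right) in 4 comparisons, with all 25 arrays and without the arrays whose markers went against their labels. Bars are SEs of the fit; the Amtn difference between Lgr5 tumors and Lgr5 glands changes sign without the 5 arrays rich in adipocyte genes, while each Odam difference keeps its sign.

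Across the 20 tumors the log2 values of Amtn and Odam rose together, with Pearson's r of 0.72 and Spearman's rho of 0.76. Odam spanned only 5.07 to 5.60 there, near the low end of the table. Over the 18 tumors left after dropping Lgr5 tumors 9 and 2, the farthest from the Amtn median, r was 0.65. Within the 10 Lgr5 tumors r was 0.74 and rho 0.68, and r was 0.64 without the same pair. Within the 10 K8 tumors r was 0.32 and rho 0.32, and 0.60 without K8 tumors 9 and 6. The Lgr5 tumors with high adipocyte genes lie at the low end of both genes, at means of 6.43 for Amtn and 5.13 for Odam. Without those 5, r over 15 tumors was 0.34 and rho 0.47, or 0.34 without Lgr5 tumors 3 and 10. Over all 25 arrays r was 0.02, rho 0.36, and r was -0.17 without Lgr5 tumors 9 and 2. The K8 glands do not follow the tumors, since they had lower Amtn than any K8 tumor and higher Odam than any tumor. Of the Lgr5 glands, gland 3 (10.32 and 5.31) lay within the tumors' ranges of both genes, and glands 1 and 2 lay above the tumors for Odam. The tumors thus fall into clusters, so the pooled values describe these arrays and carry no test.

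The core genes of enamel formation read low on every array. A list of 19 enamel and ameloblast genes other than the members was set from textbook knowledge, and 17 were measured. Amelx, Ambn and Enam, which encode the main proteins of forming enamel, read 5.01 to 5.19, 5.03 to 5.24 and 4.93 to 5.04 over the 25 arrays, with SDs of 0.04, 0.05 and 0.03. These values lie at the low end of the table, so the small spread does not show whether the genes were stable or below what the array can measure. Ambn and Enam are the next genes after Amtn on the chromosome. The enamel proteases Mmp20 (5.41 to 5.77) and Klk4 (5.95 to 6.45) also read low, with SDs of 0.08 and 0.13.

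Of the 17 genes, 2 fell and 0 rose in K8 tumors against K8 glands (limma, adjusted over all genes). They were Dlx3, a homeobox factor of tooth, hair and epidermis (-1.36 ± 0.36, adjusted p = 0.024), and Fam20a, a pseudokinase needed for phosphorylation of enamel proteins (-1.17 ± 0.33, adjusted p = 0.031). The list's median difference was -0.06 and that of all genes -0.01, with 5.69% of all genes called lower and 3.42% higher. None remained without K8 gland 1 or without K8 gland 2 (0 of 17), and 4 were called without K8 tumor 9. The differences themselves kept their sign: without K8 gland 1 Dlx3 was at -1.71 ± 0.48 and Fam20a at -1.61 ± 0.43, and without K8 gland 2 they were at -1.01 ± 0.48 and -0.73 ± 0.43. Calls over all genes numbered 1815 with all arrays and 30 without K8 gland 1. Without K8 tumor 9 they numbered 3382. Dlx3 is also an epidermal gene, and squamous genes were higher in both glands, as given above; their part was not tested. In Lgr5 tumors against Lgr5 glands 4 fell and 0 rose, where 10.6% of all genes were called lower and 5.28% higher. The log2 difference was -1.08 ± 0.28 for Tuft1, encoding tuftelin (adjusted p = 0.018), and -1.26 ± 0.38 for Fam83h, a keratin-associated protein mutated in soft-enamel disease. It was -0.93 ± 0.28 for Fam20a and -0.57 ± 0.17 for Cnnm4, a metal transporter. The count was 0 without Lgr5 gland 3, 1 without Lgr5 gland 1 or 2, and 7 without Lgr5 tumor 10. Over all genes 252 were called without Lgr5 gland 1 and 4990 without Lgr5 tumor 10. With 1 array left out Tuft1 stayed at -1.18 to -0.96 and Fam83h at -1.38 to -1.14. Without the 5 arrays rich in adipocyte genes 0 of 17, and 1 of all 19937 genes, were called, with Tuft1 at -0.58 ± 0.23 and Fam83h at -0.46 ± 0.13. Without all 7 arrays Tuft1 (-0.68 ± 0.20), Fam83h (-0.51 ± 0.12) and Fam20a (-0.94 ± 0.30) were called, and Cnnm4 (-0.25 ± 0.11) was not. The list's median was -0.06.

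Between tumors 2 of the 17 enamel genes were higher in the K8 line and 0 lower. They were Fam83h (0.91 ± 0.26, adjusted p = 0.020) and Tuft1 (0.59 ± 0.19, adjusted p = 0.036), and the median of the list was 0.08 against 0.01 for all genes. Both read lowest in the 5 arrays rich in adipocyte genes, where Fam83h was 7.75 to 8.47 and at least 9.43 in the other 15 tumors. Without those 5 arrays 0 of 17 were called, as were 0 of all 19937 genes, so the shares of 12.3% and 9.0% rest on them as well. Leaving out K8 tumor 1 or 4, or Lgr5 tumor 2, 6, 7, 8 or 9, gave 1 call. Leaving out K8 tumor 7 or Lgr5 tumor 1, 5 or 10 gave 4, and leaving out Lgr5 tumor 3 gave 5. Calls over all genes ran from 2291 without Lgr5 tumor 8 to 5698 without Lgr5 tumor 3. Between glands limma called 0 of the 17 and 0.0% of all genes in either direction, with 0 of the 17 and 319 of all genes at an unadjusted p below 0.05.

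The genes beside Amtn and Odam on the chromosome were measured to see whether the neighbourhood varied as a block. Of 27 coding neighbours, up to 10 on the outer sides and those between, 23 were measured. In K8 tumors against K8 glands 5 of them fell and 0 rose (median -0.13), where 5.69% of all genes were called lower and 3.42% higher. Smr3a, a secretory protein of the submaxillary gland, read 11.75 in K8 gland 1 and at most 5.31 on the other arrays (-3.32 ± 0.75, adjusted p = 0.016). BC037156, the gene after Odam, read 8.78 in K8 gland 1 and at most 5.07 elsewhere (-1.90 ± 0.44, adjusted p = 0.017). Csn1s2b, the gene of a milk casein, read 8.99 in K8 gland 2 and at most 5.08 elsewhere (-2.02 ± 0.48, adjusted p = 0.017). Each of these calls rests on 1 array, and K8 gland 1 is the one with the salivary transcripts and the highest Odam. Without K8 gland 1 the difference of BC037156 was 0.0037, and without K8 gland 2 that of Csn1s2b was 0.02. The other genes called were Grsf1, encoding an RNA-binding protein (-0.40 ± 0.09), and Rufy3 (-0.44 ± 0.13). The count was 1 without K8 gland 1 and 2 without K8 gland 2.

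**Figure D4:**
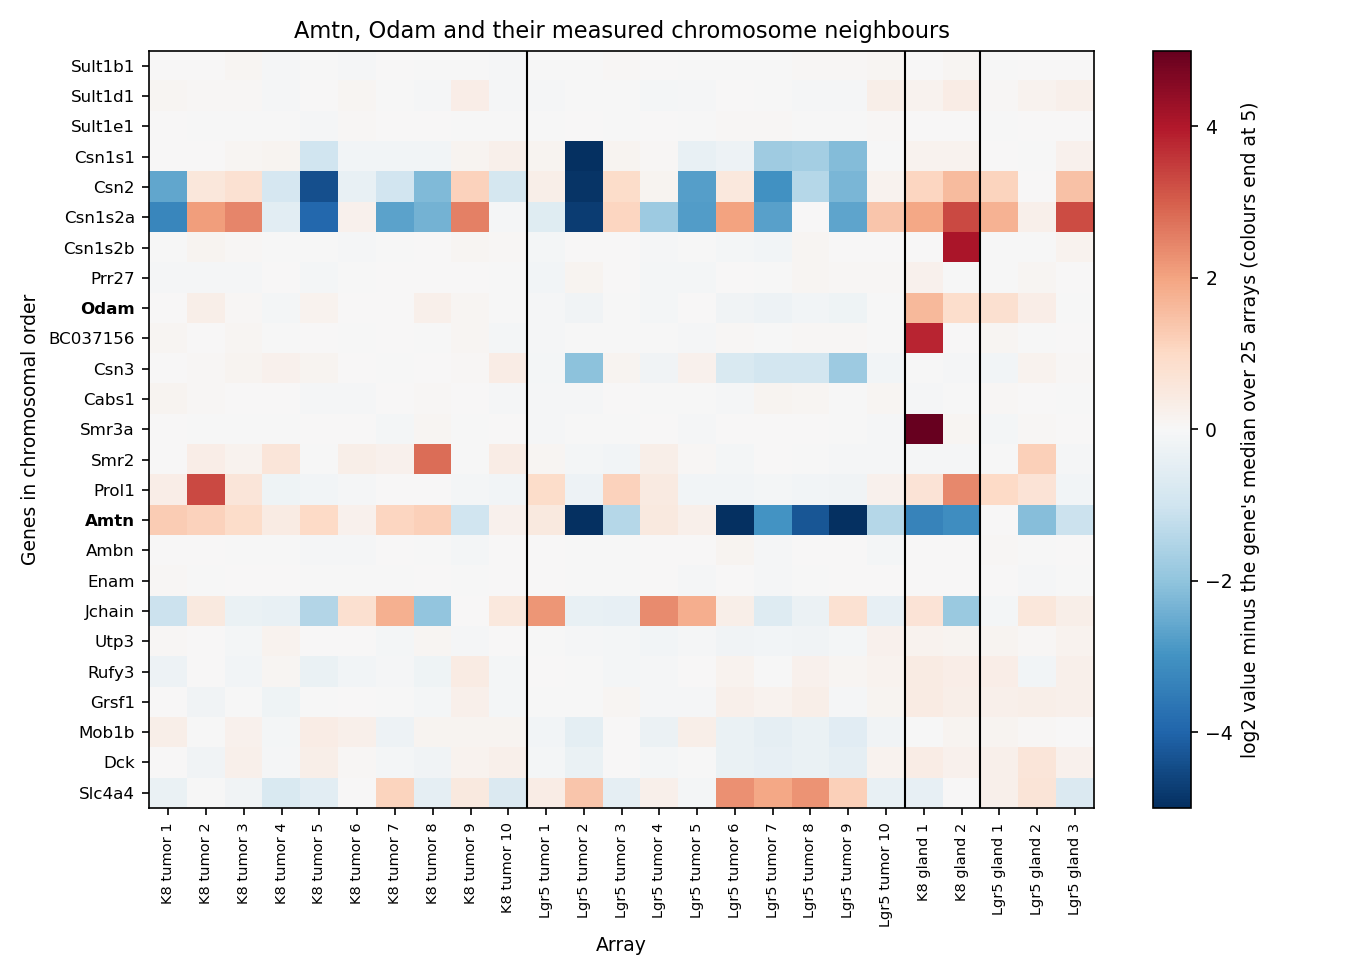
Log2 values of Amtn, Odam and 23 measured neighbours, in chromosomal order from top to bottom, on each array (columns by labelled group), each minus the gene's median over 25 arrays. Amtn is low in 5 Lgr5 tumors and both K8 glands, Ambn and Enam beside it read low throughout and span at most 0.22 log2 units, and Smr3a and BC037156 are high in K8 gland 1 alone.

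The caseins did not share a single pattern. Csn2, encoding beta-casein, ran from 7.09 to 13.57, with the lowest values in Lgr5 tumor 2 (7.09) and K8 tumor 5 (7.62). K8 tumor 5 had 12.40 for Amtn. Csn2 did not pass the test in any comparison: K8 tumors against K8 glands gave -2.28 ± 1.29 (adjusted p = 0.29). Csn3, encoding kappa-casein, was 12.58 to 13.11 in the 15 tumors outside the 5 with high adipocyte genes and 10.67 to 11.98 in those 5. It was 0.75 ± 0.23 higher in K8 than in Lgr5 tumors (adjusted p = 0.027). Of the 23 neighbours, 3 were higher and 1 lower in K8 than in Lgr5 tumors, with a median of 0.02, where 12.3% and 9.0% of all genes were called. The higher count is near that background. Mob1b (0.36 ± 0.09) and Dck, deoxycytidine kinase (0.24 ± 0.08), were the others that were higher, and Slc4a4, a bicarbonate cotransporter, was 1.02 ± 0.36 lower (adjusted p = 0.046). Without the 5 arrays 0 of 23 were called. The count was 1 without Lgr5 tumor 7 or 8, and 2 without K8 tumor 1, 3, 5, 6 or 10 or Lgr5 tumor 2, 6 or 9. In Lgr5 tumors against Lgr5 glands 2 fell, Dck (-0.55 ± 0.12) and Utp3 (-0.20 ± 0.06), and 0 rose (median -0.12). Of all genes, 10.6% were called lower and 5.28% higher in this comparison. With any 1 of the 3 Lgr5 glands left out, 1 of the 23 was called, and without the 5 arrays 0. Without all 7 arrays Dck (-0.42 ± 0.12) and Utp3 (-0.20 ± 0.06) were called. Between glands limma called 0 of 23, with 3 at an unadjusted p below 0.05. The 5 Lgr5 tumors low in Amtn were also low in Csn3.

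Amtn and Odam proteins are known from a laminin-332 basal lamina, so 9 genes of laminin-332 and the hemidesmosome, the junction that anchors epithelium to it, were listed, and 8 were measured. Between tumors 5 were higher in the K8 line and 1 lower, with a median of 0.53, where 12.3% and 9.0% of all genes were called. The laminin chains Lama3 and Lamb3 were 1.08 ± 0.33 and 1.23 ± 0.37 higher (adjusted p = 0.027 and 0.026). The integrin chains that bind laminin-332, Itga6 and Itgb4, were 0.55 ± 0.15 and 0.68 ± 0.21 higher, and the linker plectin, Plec, 0.46 ± 0.12. The tetraspanin Cd151 was 0.27 ± 0.08 lower. Lamb3 was 7.42 to 8.21 in the 5 Lgr5 tumors with high adipocyte genes and 9.49 to 10.67 in the other 15 tumors, so these groups did not overlap. Without the 5 arrays 0 of 8 were called, and 2 were called without Lgr5 tumor 2, 6, 7 or 8.

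Dst, encoding dystonin, a plakin of the hemidesmosome with other forms in muscle and nerve, rose in both lines' tumors against their glands. It was 1.40 ± 0.35 higher in the K8 line (adjusted p = 0.020) and 1.04 ± 0.29 in the Lgr5 line (adjusted p = 0.024). K8 tumor 9 read 8.17 and the other K8 tumors 9.13 to 9.60. Itgb4 fell by 1.07 ± 0.31 in the Lgr5 line. In the 5 Lgr5 tumors rich in adipocyte genes Dst read 9.74 to 10.26, against 8.48 to 9.47 in the other 5. Itgb4 went the other way, at 8.16 to 8.47 against 9.32 to 9.87. In the K8 line 1 of 8 genes was called (median 0.14), where 3.42% of all genes were called higher and 5.69% lower. Dst stayed at 1.34 to 1.53 in the K8 line with any 1 array left out. The count was 0 without K8 gland 1 or 2, and 2 without K8 tumor 9 or any Lgr5 tumor other than 4 and 9. Over all genes the most calls in the K8 line with 1 array left out, 3382, also came without K8 tumor 9. In the Lgr5 line 1 rose and 1 fell (median -0.39), where 5.28% of all genes were called higher and 10.6% lower. Over all genes 252 were called without Lgr5 gland 1 and 4990 without Lgr5 tumor 10. The list's count was 0 without Lgr5 gland 1 or 3, 1 without Lgr5 gland 2 and 4 without Lgr5 tumor 10. Without the 5 arrays rich in adipocyte genes it was 0, with Dst at 0.61 ± 0.28 and Itgb4 at -0.41 ± 0.13. Without all 7 arrays Dst (0.77 ± 0.15) and Itgb4 (-0.48 ± 0.11) were called. Between glands limma called 0 of 8, also at an unadjusted p below 0.05.

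A list of 10 factors and cytokines known to act on Amtn or Odam expression in cultured cells had 9 measured genes. In K8 tumors against K8 glands limma called 0 of 9, with 5 at an unadjusted p below 0.05 (median -0.05). The count was 3 without K8 tumor 9 and 2 without Lgr5 tumor 10. Over all genes the most calls with 1 array left out, 3382, also came without K8 tumor 9. In Lgr5 tumors against Lgr5 glands 3 fell and 0 rose (median -0.43), where 10.6% of all genes were called lower and 5.28% higher. Smad3, a transducer of TGF-beta signals, differed by -0.43 ± 0.09 (adjusted p = 0.0092), and Cebpb, a transcription factor of inflammation and differentiation, by -0.92 ± 0.20 (adjusted p = 0.0098). Il1b, the cytokine interleukin-1 beta, differed by -2.72 ± 0.76 (adjusted p = 0.021). Without the 5 arrays rich in adipocyte genes 0 of 9 were called, and the differences were -0.32 ± 0.08, -0.60 ± 0.14 and -1.54 ± 0.69. Without all 7 arrays these 3 genes were called, at -0.33 ± 0.09, -0.74 ± 0.08 and -2.02 ± 0.51. Neutrophil genes, which mark a main source of Il1b, averaged 6.70 to 9.22 in the Lgr5 glands and 5.79 to 6.27 in the Lgr5 tumors other than tumor 10 (8.79); their part was not tested. Between tumors, where 12.3% of all genes were called higher and 9.0% lower, limma called 1 of the 9 (median 0.25). It was Smad3, 0.31 ± 0.06 higher in the K8 line (adjusted p = 0.012). The count was 0 without the 5 arrays with high adipocyte genes, and 2 without K8 tumor 7 or 9 or Lgr5 tumor 1, 3, 4, 5 or 10. Between glands limma called 0 of 9, also at an unadjusted p below 0.05.

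Genes whose profile over the 20 tumors was most like that of Amtn were ranked by Pearson's r, leaving out predicted genes, RNA genes and receptor segments. The first 8 were Atp6v1b1 (r = 0.94), Clic6 (0.94), Vtcn1 (0.93), Foxi1 (0.93), Hspa4 (0.93), Lipa (0.93), Cdhr1 (0.93) and Aldoc (0.93). Atp6v1b1 encodes a subunit of the vacuolar proton pump, Clic6 a chloride channel protein and Foxi1 a forkhead factor of ion-transporting cells. Vtcn1 encodes the immune checkpoint ligand B7-H4. An r of at least 0.80 was common: 857 genes (4.3%) reached it, most of the tumors' spread in Amtn lying between the 5 arrays with high adipocyte genes and the rest. Over the 15 other tumors 16 genes (0.0803%) reached it, and the first 4 had r of 0.68, 0.60, 0.42 and 0.62.

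Within groups the likeness differed between these genes. Within the 10 K8 tumors r with Amtn was 0.93 for Atp6v1b1, 0.92 for Clic6, 0.92 for Foxi1 and 0.77 for Vtcn1. Without K8 tumor 9 it was 0.82, 0.80, 0.74 and 0.56. Hspa4 went from 0.37 to -0.06. Within the 10 Lgr5 tumors r was 0.93, 0.94, 0.92 and 0.92. The arrays share their labelled line and, in part, the marker differences given above.

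Among the arrays that left the common course, Lgr5 gland 2 read 9.27 for Amtn but 11.16 for Foxi1 and 12.60 for Atp6v1b1. Lgr5 tumor 3 read 9.99 for Amtn, 11.13 for Foxi1 and 12.26 for Atp6v1b1. Lgr5 tumor 1, with a like 10.96 for Foxi1, read 11.90 for Amtn. In Lgr5 gland 2 and Lgr5 tumor 3 Amtn was thus lower than in most other arrays with about as much Foxi1. K8 glands 1 and 2 read 8.06 and 8.31 for Amtn at 9.28 and 8.67 for Foxi1, while Lgr5 tumor 10 read 9.96 at 9.13. Lgr5 gland 1 departed the other way, with 11.41 for Amtn at 9.51 for Foxi1.

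**Figure D5:**
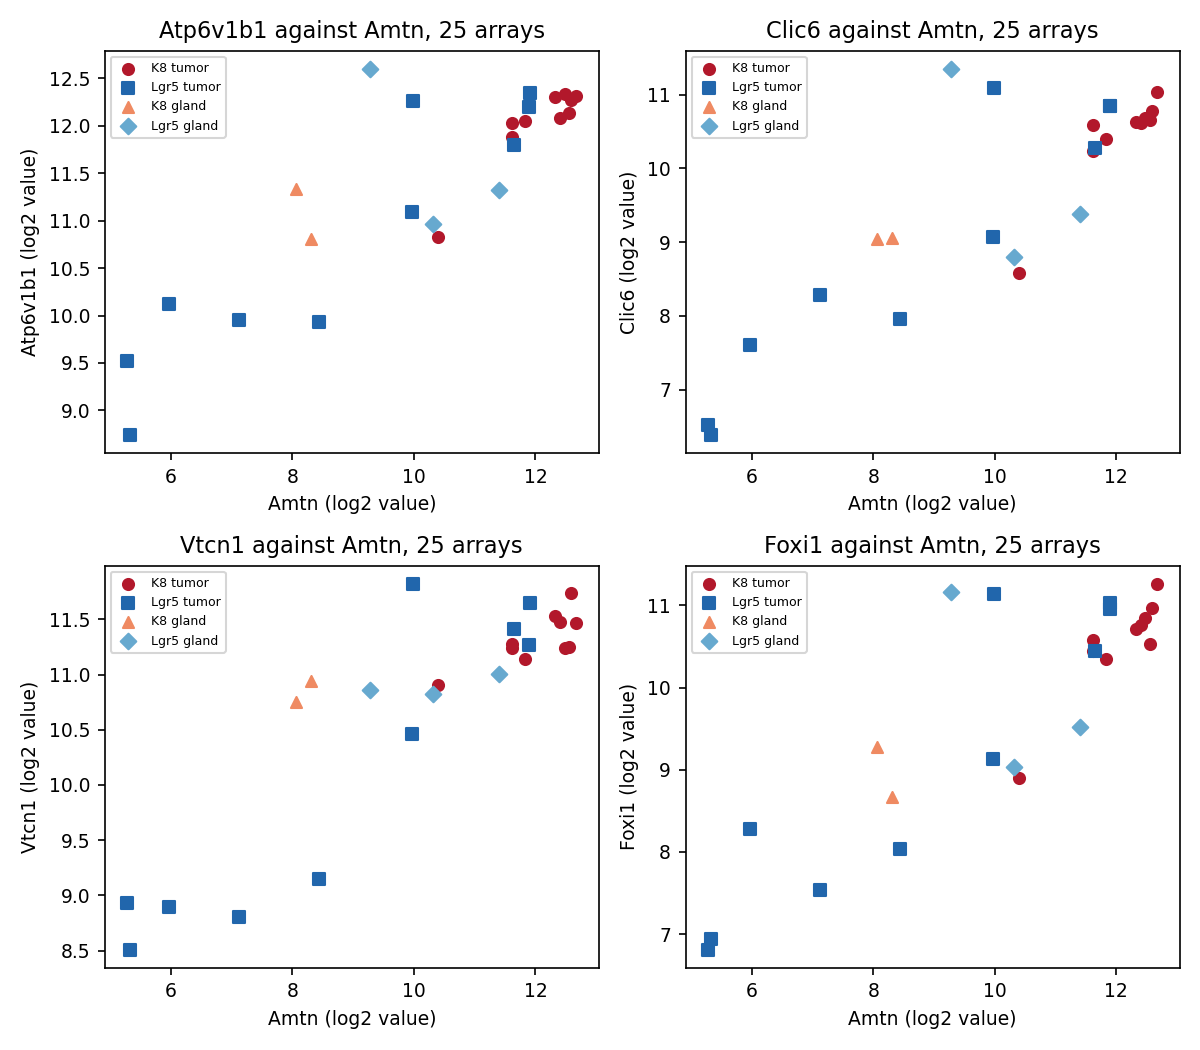
Atp6v1b1, Clic6, Vtcn1 and Foxi1 against Amtn on 25 arrays, all in log2 values. The K8 tumors other than tumor 9 cluster at the upper right, and the 5 Lgr5 tumors with high adipocyte genes lie at the lower left. Lgr5 gland 2 and Lgr5 tumor 3 lie above the course of the other arrays in the Atp6v1b1, Clic6 and Foxi1 plots. In the Vtcn1 plot Lgr5 tumor 3 has the highest value (11.82).

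For Odam the ranking gave other genes and lower values. It rests on Odam values of 5.07 to 5.60 in the tumors, near the low end of the table. B3galt5, a glycosyltransferase gene, came first (r = 0.85 over 20 tumors), then Ccdc107 (0.84), Klc4 (0.83), Gse1 (0.83), Ap2a1 (0.83), Vsig10 (0.82), Lemd2 (0.82) and Zfp771 (0.81). An r of at least 0.80 was reached by 13 genes (0.0652%), and by 1 gene over the 15 tumors. B3galt5 had r of 0.73 over those 15, 0.68 within the K8 tumors and 0.85 within the Lgr5 tumors, and 0.42 over all 25 arrays. Ccdc107 had -0.06 over all 25 arrays, where the K8 glands had the highest Odam. No gene was among the first 8 of both members.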

How the data were processed

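Total RNA of 25 mouse mammary samples (100 ng input) was, per the labels' protocols, amplified with NuGEN reagents, labelled and read on whole-transcript arrays. The values are those of the table the authors deposited, on a log2 scale by their range (4.13 to 13.9); the labels do not state the base. The submitters' processing notes name affy without a version; no label or header used here tells how background and summarization were done, and scanner files were left unused.

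For each gene symbol the probe set with the highest mean was kept (19937 genes). limma 3.58.1 in R 4.3.3 fitted 4 group means over all 25 arrays, with eBayes and Benjamini-Hochberg adjustment at 0.05, and was tested on simulated data. Samples were grouped by title. Replicate numbers were not taken as pairs. Same-numbered tumors' deviations correlated at -0.15 to 0.51, and those of same-numbered glands at -0.09 and -0.28. For same-numbered tumors and glands of a line they correlated at -0.37 to 0.02. Arrays of unlike number were not compared, so these values do not settle whether the numbers pair arrays. The members, lists and alternatives were chosen with earlier results of these data known. Named were the members, the 8 genes most like each, per list up to 4 called genes by smallest adjusted p, and a few enamel and casein genes. Further genes called, and the salivary genes, were named after their values were seen. Gene positions and promoters are from RefSeq, GRCm38.p6. Figures used matplotlib 3.10.9.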

Additional observations from a re-analysis of the deposited data

Results flagged for a closer look

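In 62 groups of 10 tumors the array farthest from the rest was set against the range of its group by Dixon's criterion, which flags about 5% of groups by chance. The members and lists were chosen with these values known, so the flags describe arrays and are not read as tests. Amtn in K8 tumor 9 stood out at 10.40, with the other 9 K8 tumors at 11.62 to 12.67. The same array stood apart for Dlx3 (7.55, others 5.97 to 6.54), Dst (8.17, others 9.13 to 9.60), Grsf1 (10.57, others 10.10 to 10.33) and Il1b (8.75, others 6.11 to 7.32). K8 tumor 9 is 1 of the 2 tumors with high squamous genes and was set apart by them above, so its flags are no separate finding. The other, Lgr5 tumor 10, stood apart for Dlx3 (7.82, others 6.14 to 6.65) and Utp3 (6.29, others 5.90 to 6.08). K8 tumor 7 stood apart for Itga6 (11.16, others 11.58 to 11.80) and Smad3 (9.66, others 9.83 to 10.01). Smr3a in K8 tumor 8 was 5.31 (others 5.12 to 5.21), and Ambn in Lgr5 tumor 6 was 5.24 (others 5.04 to 5.14), both small gaps among low values.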

How the results depend on the processing

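K8 line and Lgr5 line stand for tumors against glands of that line, and values are in the order K8 line, Lgr5 line, tumors against tumors. The cause of each move was not tested. Of 288 alternative values for the members, 278 moved by less than the spread between replicates, 8 moved by more and 2 turned. The turned values were Amtn in the Lgr5 line, at 0.75 without Lgr5 tumors 2, 6, 7, 8 and 9 and 1.03 without all 7 arrays. That value was -2.55 with array weights and ranged from -2.11 to -1.04 leaving out 1 array. Between tumors Amtn was 0.97 and 0.87 without the 5 and without all 7, Odam was 0.11 and 0.12, and their correlation was 0.34 and 0.45. Leaving out 1 array, Odam ranged from -1.56 to -0.79 in the K8 line, from -0.68 to -0.28 in the Lgr5 line and from 0.49 to 1.26 between glands. Of 1039 alternative values for 29 calls of named genes, 902 kept the call, 135 lost it and 2 turned: leaving out 1 K8 gland, BC037156 ranged from -3.80 to 0.0037 and Csn1s2b from -4.06 to 0.023.

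Calls over all genes were 1815, 3168 and 4246. With the compared groups alone the lines gave 2859 and 690. Array weights gave 6341, 7815 and 7997, with 5 between glands. With the replicate number as a block (replicate block) the Lgr5 line gave 1737. Dropping the 2 tumors rich in squamous genes, the lines gave 3963 and 5387, with 1 between glands. Dropping the 5 rich in adipocyte genes left 1 in the Lgr5 line and 0 between tumors, and dropping all 7 gave 5351 in the K8 line, 0 between tumors and 1 between glands. Leaving out 1 array they ranged from 30 to 3382, 252 to 4990 and 2291 to 5698, and from 0 to 15 between glands.

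Calls over all genes changed with the setting, so a changed list count, here and above, is not read as a trait of the list. Enamel calls in the lines were 4 and 0 with the compared groups alone, and 8, 7 and 8 with array weights. With low genes left out the K8 line gave 1 and tumors 4, and with the replicate block the Lgr5 line gave 1 and tumors 4. They were 4, 7 and 5 without the 2 squamous tumors, 0 in the Lgr5 line and between tumors without the 5, and 7 in the K8 line and 0 between tumors without all 7. Leaving out 1 array they ranged from 0 to 4, 0 to 7 and 1 to 5. Neighbour calls were 1, 1 and 2 with the compared groups alone, and 8, 9 and 7 with array weights. Both lines gave 1 with low genes left out and with the replicate block. The Lgr5 line gave 0 without the 5 and 4 without all 7, and tumors 0 in both. Leaving out 1 array they ranged from 1 to 6, 1 to 3 and 1 to 5, and from 0 to 2 between glands.

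Laminin-332 and hemidesmosome calls in the lines were 2 and 0 with the compared groups alone, and 3 and 6 with array weights. The K8 line gave 2 after quantile normalization or with low genes left out, and the Lgr5 line 0 with the replicate block. They were 2, 0 and 0 without the 5, 2 and 4 in the lines without the 2 squamous tumors, and 3 in the K8 line and 0 between tumors without all 7. Leaving out 1 array they ranged from 0 to 2, 0 to 4 and 2 to 6. Regulator calls in the lines were 3 and 0 with the compared groups alone, and 5, 7 and 5 with array weights. Tumors gave 2 with low genes left out or with the replicate block. They were 2, 0 and 0 without the 5, 5 in the K8 line and 3 between tumors without the 2 squamous tumors, and 5, 5 and 0 without all 7. Leaving out 1 array they ranged from 0 to 3 in the K8 line and 1 to 2 between tumors. For the Lgr5 line without all 7 arrays the calls over all genes are not given. The list genes called in that setting, here and above, are therefore not read as a trait of their lists. The replicate numbers were taken as names only. Median centring, the mean of probe sets, and trend with robust moderation moved no count by over 1.5 times.

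Signal over background of single probes was not used here, which limits differences among low values such as those of Odam in tumors. Only 2 and 3 glands stand for the controls, and markers go against the labels of 7 tumors and are unusual in all 5 glands, so no difference against glands is free of this doubt.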
